A study of Mus musculus with 72 samples.

Results

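Acetylation of histone H3 at lysine 27 (H3K27ac) was compared between 8 and 4 months of age in oligodendrocyte nuclei of the mouse forebrain. The comparison took the 8 ChIP libraries of the oligodendrocyte table, 4 from each age, out of 72 samples in the whole series. Genotype was a covariate, the input libraries were left out of the test, and results are reported for peaks on chromosomes 1 to 19. Of its 82577 peaks, 81406 were autosomal, and 77416 of these held enough tags to be tested.

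The study profiled chromatin in sorted brain nuclei from 2 genotypes, wild type (WT) and a knockout of Sgsh (SgshKO), a gene for a lysosomal enzyme that takes part in breaking down heparan sulfate. All mice were on the C57BL/6 strain. Each of the 4 groups used here, WT at 4 months, SgshKO at 4 months, WT at 8 months and SgshKO at 8 months, had 2 replicate libraries. The sources used here give neither the construct of the Sgsh allele nor whether replicates came from separate mice, so p-values measure the spread between these libraries, part of which may be technical. Nuclei were sorted as positive for OLIG2 and DAPI and negative for PU.1 and NEUN, and chromatin was immunoprecipitated with an H3K27ac antibody from Active Motif. One input library of chromatin without immunoprecipitation was made for each age, from WT and SgshKO together.

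Oligodendrocytes wrap axons in myelin, a lipid-rich membrane held together by a small set of abundant proteins such as MBP, PLP, MAG and MOG. They arise from precursor cells that carry PDGFRA and NG2 (Cspg4), and the OLIG2 protein marks both stages, so the sort can hold either. H3K27ac is deposited by the acetyltransferases CBP and p300 at active promoters and enhancers, and its level at a promoter usually follows the activity of the gene. A change in a sorted population can come from more signal per nucleus or from a different mix of nuclei, and these cannot be told apart in the ChIP libraries.

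Promoter sequences are shown for 5 genes whose promoter H3K27ac rose with age and whose level is described below. They are the 250 bases before the RefSeq start site on the mouse assembly GRCm38.p6, written 5′ to 3′ on the strand of the gene, and each lies inside the 800-base window of its promoter peak. Capitals mark matches, on either strand, to 5 short motifs. The GC box was searched as GGGCGG, which SP1-type factors can bind. The CCAAT box was searched by the letters of its name. The SOX site was searched as ACAAAG, which factors of the SOX family can bind. The E-box of the MITF and TFE factors was searched as CACGTG. The AP-1 site of Fos and Jun was searched as TGANTCA. The promoters of 20 described genes had a called peak, and 6 of these genes matched an entry in the RefSeq table. Lzts2 (chr19:45017885-45018134, plus strand) had the largest promoter change among genes with many called peaks, Mag (chr7:30914923-30915172, minus strand) and Mog (chr17:37023399-37023648, minus strand) encode myelin proteins, Sgms1 (chr19:32388513-32388762, minus strand) makes sphingomyelin, and Tfeb (chr17:47736787-47737036, plus strand) encodes a regulator of lysosomal genes.
Lzts2: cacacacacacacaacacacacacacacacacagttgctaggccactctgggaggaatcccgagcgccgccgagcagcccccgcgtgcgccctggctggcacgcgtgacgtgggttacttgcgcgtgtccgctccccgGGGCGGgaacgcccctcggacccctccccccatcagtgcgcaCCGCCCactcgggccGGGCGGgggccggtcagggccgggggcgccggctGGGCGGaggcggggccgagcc
Mag: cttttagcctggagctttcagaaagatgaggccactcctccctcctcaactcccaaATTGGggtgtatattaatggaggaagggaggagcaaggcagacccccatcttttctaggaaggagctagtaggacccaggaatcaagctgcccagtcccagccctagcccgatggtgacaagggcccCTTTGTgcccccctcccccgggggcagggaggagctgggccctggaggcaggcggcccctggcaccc
Mog: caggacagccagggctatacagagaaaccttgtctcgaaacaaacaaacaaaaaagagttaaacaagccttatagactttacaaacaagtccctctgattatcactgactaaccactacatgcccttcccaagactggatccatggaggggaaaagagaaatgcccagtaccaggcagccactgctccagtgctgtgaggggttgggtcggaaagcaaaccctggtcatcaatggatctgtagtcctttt
Sgms1: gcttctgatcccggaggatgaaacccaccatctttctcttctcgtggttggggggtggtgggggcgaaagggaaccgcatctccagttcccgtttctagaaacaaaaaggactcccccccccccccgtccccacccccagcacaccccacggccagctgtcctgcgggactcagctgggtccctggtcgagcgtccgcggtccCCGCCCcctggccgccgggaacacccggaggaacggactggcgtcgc
Tfeb: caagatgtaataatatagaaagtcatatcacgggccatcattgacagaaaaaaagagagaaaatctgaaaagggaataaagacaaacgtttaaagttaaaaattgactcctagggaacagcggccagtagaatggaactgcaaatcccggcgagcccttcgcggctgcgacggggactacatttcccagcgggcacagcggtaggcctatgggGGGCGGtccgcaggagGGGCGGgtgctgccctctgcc
The Lzts2 promoter held 4 GC boxes, which began 112, 70, 55 and 21 bases before the start site. Tfeb held 2, at 37 and 21 bases, and Sgms1 held 1, at 47 bases. Mag held a CCAAT box at 194 bases and a SOX site at 67 bases, and none of the letters searched occurred in the Mog window. Over 32851 promoter windows of the same table, 32.7% held a GC box, 33.8% a CCAAT box, 16.5% a SOX site, 6.75% an AP-1 site and 6.02% an E-box. These matches describe the letters and say nothing of which factors bound.

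The 8 ChIP libraries held 21178752 to 34178145 tags each. The share of a library's tags that fell in peaks was 44.5% and 43.2% in WT and 47.3% and 29.2% in SgshKO at 4 months, against 55.6% and 58.6% in WT and 52.4% and 57.3% in SgshKO at 8 months. The 4 libraries of 8 months all lay above the 4 of 4 months, with means of 56.0% ± 2.68 and 41.0% ± 8.08 (SD, n = 4 each). The difference of 14.9 percentage points had p = 0.0286 in an exact two-sided permutation test, the smallest value that 4 against 4 can give. It was 11.0 points without replicate 2 of SgshKO at 4 months, which had the lowest share, and p was 0.0571 without replicate 2 of WT or of SgshKO at 8 months. The value of 1 counting step was 0.5 tags in the ChIP libraries of 8 months and in the 4-month input, and 1 tag in the ChIP libraries of 4 months and in the 8-month input, so this feature of the counting and age cannot be told apart. The inputs held 22733886 tags at 4 months and 14799110 at 8 months, of which 3.03% and 2.54% fell in peaks. The 8-month input held 0 tags at 64.95% of autosomal peaks, against 2.76% for the 4-month input. At those peaks the rule on input used below rests on the 4-month input alone.

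H3K27ac was higher at 8 months at 1950 peaks and lower at 313. Levels are given as scaled tags, that is tags per 10000000 after scaling by the trimmed mean of M-values (TMM), and a peak was called when the limma fit of log2(scaled tags + 1) put its false discovery rate (FDR, by the Benjamini-Hochberg procedure) under 0.05. The called peaks were 2.92% of those tested, 2.52% higher and 0.404% lower, and 11040 peaks had an unadjusted p under 0.05. The median log2 change was 0.58 among the higher peaks and -0.67 among the lower, and 316 higher and 62 lower peaks changed at least 2-fold. After overlapping windows were joined, the higher peaks formed 1581 regions nearest to 1260 genes, and the lower formed 293 regions nearest to 253 genes.

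**Figure D1:**
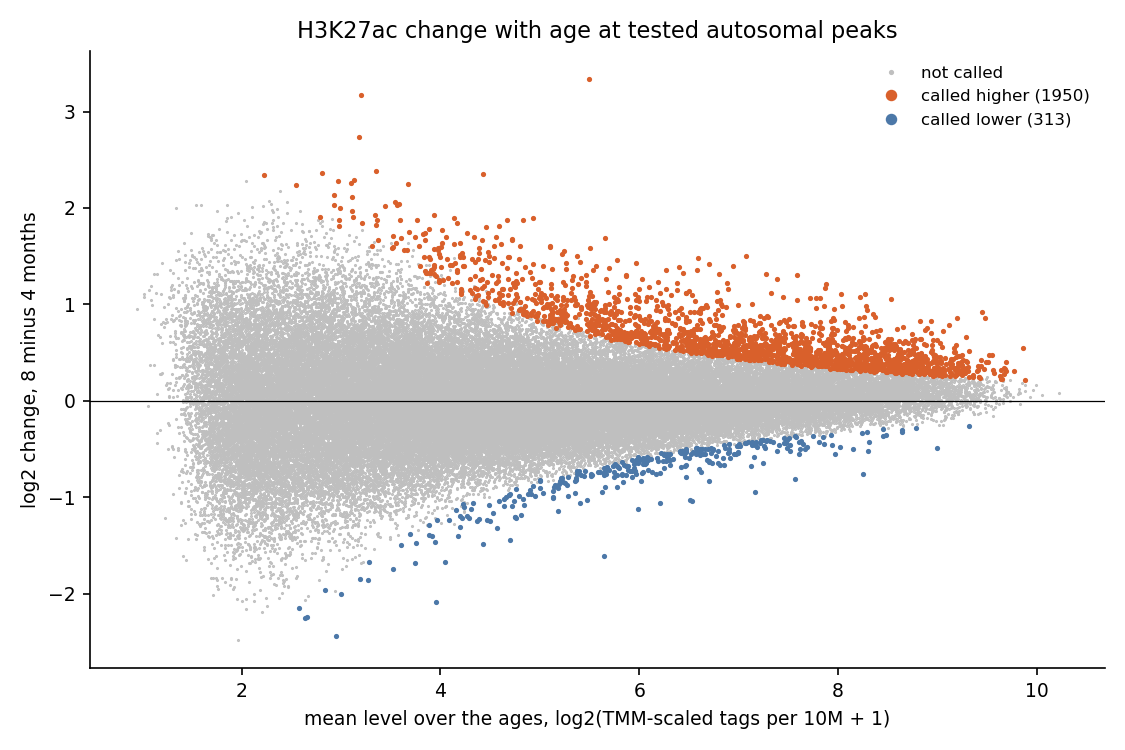
Each point is a tested autosomal peak, with its mean level as log2(scaled tags + 1) (x) and the log2 change from 4 to 8 months (y). Called peaks are coloured, 1950 higher and 313 lower, and the higher ones lie mostly at the strong end of the range.

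The higher peaks were strong ones. Their median level over all 8 libraries was 154 scaled tags, against 66.2 for the lower peaks and 23.6 for all tested peaks. When tested peaks were divided by level into 5 classes of equal size, the share called higher was 0.116%, 0.484%, 1.17%, 2.34% and 8.49% from the weakest class to the strongest. The strongest class held 67.4% of the higher peaks and 38.3% of the lower. The ages did not overlap at 1670 of the higher and 245 of the lower peaks, while non-overlap held for 7.88% of all tested peaks, 4.92% in the higher and 2.96% in the lower direction.

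Position in the genome also differed between the directions. Within 1 kb of a start site 2.73% of tested peaks were higher and 0.214% lower, and over 100 kb from a start 2.01% were higher and 0.715% lower. Introns held 67.1% of the lower peaks, 45.3% of the higher and 47.9% of all tested peaks. Peaks annotated as intergenic had the highest share called higher among the large annotation classes, 3.06%, against 2.76% of promoter peaks and 2.38% of intron peaks.

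**Figure D2:**
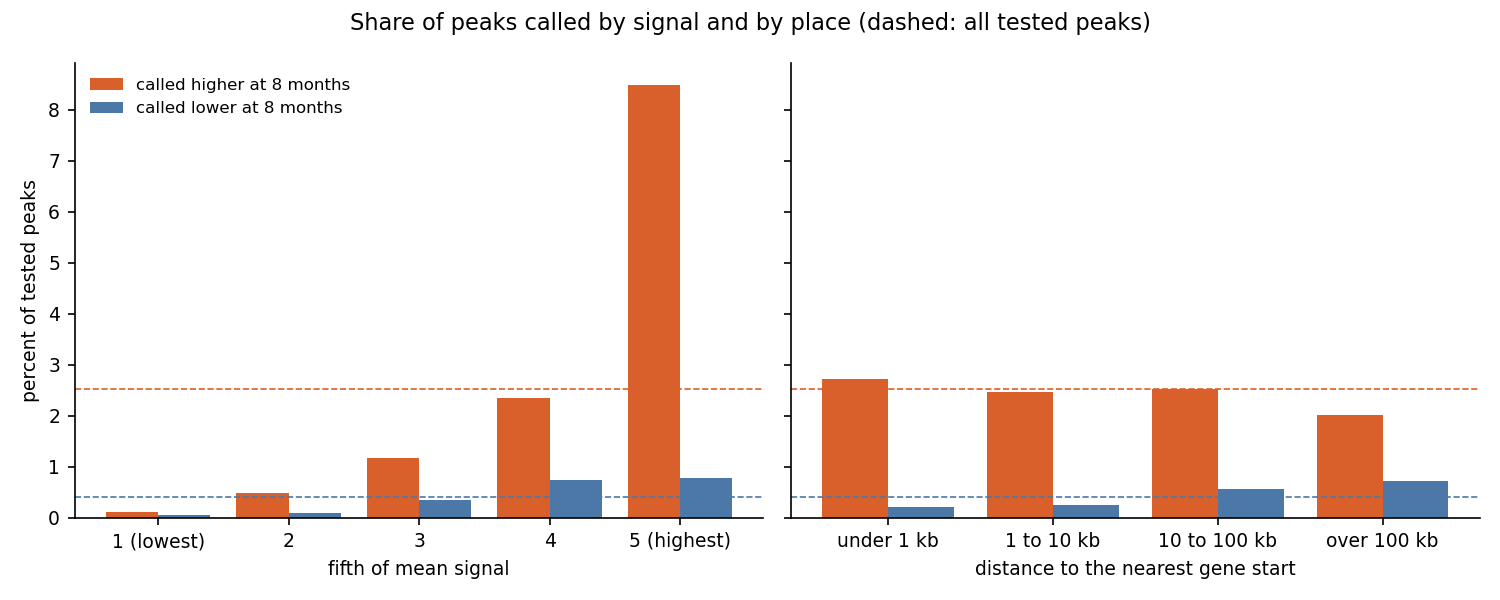
Bars give the percentage of tested autosomal peaks called higher or lower at 8 months, by class of signal strength and by distance to the nearest start site, and dashed lines give the shares over all tested peaks. The share called higher climbs from 0.116% to 8.49% across the signal classes.

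The balance of directions depended on how libraries were scaled. With TMM 86.2% of calls were higher. Scaling by library total, which keeps the difference in share of tags in peaks, moved the median change of all tested peaks to 0.41 (0.01 with TMM) and gave 9349 calls, 99.8% of them higher. Quantile scaling gave 2186 calls, 74.1% higher, and TMM computed from promoter peaks gave 1922, 71.8% higher. Of the 1950 higher peaks, 1950 kept their call under library total and 1567 under quantile scaling. Of the 313 lower peaks 16 kept theirs under library total, where 23 turned sign, and 293 under quantile scaling. Libraries also weighed on the count: 1151 peaks were called without replicate 2 of WT at 8 months, 1397 and 1419 without replicates 1 and 2 of SgshKO at 8 months, and 1557 without replicate 2 of SgshKO at 4 months.

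The named peaks were those whose ages did not overlap, that kept their call under both other scalings, and whose input was low. Of the higher ones 7 are described. The 1 at a promoter was that of Adamts4 (chr1:171249091-171249891, mm10), which encodes a secreted metalloproteinase that cleaves proteoglycans. Its promoter window held 242 and 232 scaled tags in WT and 281 and 203 in SgshKO at 4 months, against 555 and 510 in WT and 460 and 467 in SgshKO at 8 months. Its log2 change was 1.06 (SE 0.09, limma FDR = 9.56e-12), and every 8-month library lay above every 4-month library.

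**Figure D3:**
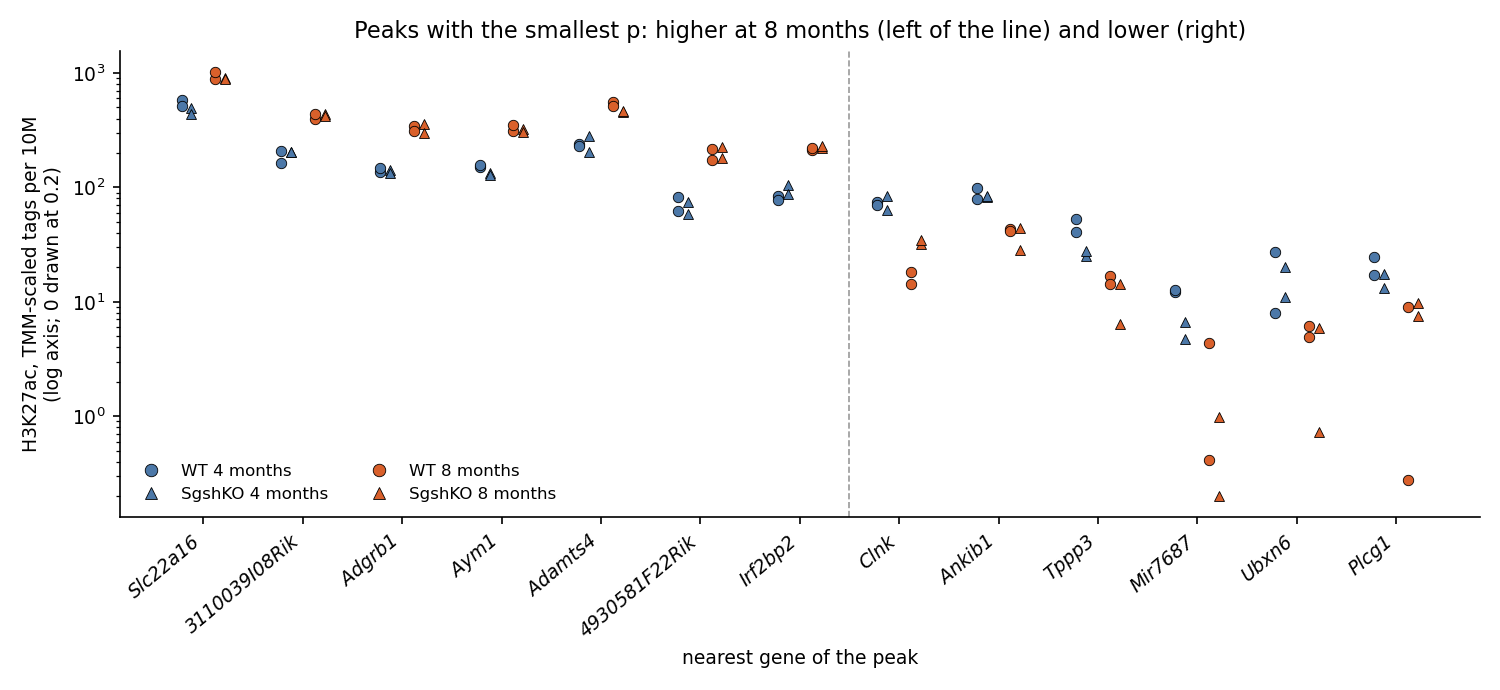
Scaled tags per 10000000 (log axis) in each of the 8 libraries at the named higher and lower peaks, with colour for age and marker for genotype. Within each of the 13 peaks the libraries of the ages do not overlap, which the selection required.

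The other 6 named higher peaks lay away from start sites, 3 in introns and 3 between genes. A peak 7.99 kb into Adgrb1 (intron 1 of 30, chr15:74523782-74524582), which encodes an adhesion receptor of the BAI family, held 136 and 148 in WT and 143 and 135 in SgshKO at 4 months. The later libraries held 341 and 309 in WT and 358 and 302 in SgshKO, a log2 change of 1.22 (SE 0.10, FDR = 4.91e-12). The peak 73.1 kb from Irf2bp2 (chr8:126666145-126666945), a gene for a transcriptional corepressor, went from 83.8 and 77.6 in WT and 105 and 87.4 in SgshKO to 211 and 220 in WT and 220 and 229 in SgshKO. These windows stood at more than 2-fold their 4-month level, with log2 1.31 for Irf2bp2 (FDR = 6.2e-11). The largest change of the 7 was at an intronic peak of 4930581F22Rik (intron 1 of 10, chr9:35108741-35109541), with 61.6 and 82.5 in WT and 58.8 and 74.9 in SgshKO at 4 months and 172 and 217 in WT and 224 and 181 in SgshKO at 8 months (log2 1.51, FDR = 3.99e-11). The strongest of these 6 was an intergenic peak nearest to Slc22a16 (chr10:40517081-40517881), a carnitine transporter gene, with 439 to 583 at 4 months and 880 to 1022 at 8 months (log2 0.86, FDR = 2.15e-12). The remaining peaks, nearest to Aym1 and to 3110039I08Rik, changed by 1.17 and 1.11 on the log2 scale. The second was intronic and lay 10 kb upstream of the 3110039I08Rik start, so its intron too need not belong to that gene.

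Fewer peaks met the rule in the lower direction: 6 did, against 1341 higher peaks. The rule asks that a call hold under library total, which 16 of 313 lower calls and all 1950 higher calls did. These counts therefore reflect the rule and do not compare the directions. The strongest lower call was an intergenic peak 191 kb from Clnk (chr5:39066920-39067720), a gene for an adaptor protein of immune-cell signalling. It held 74.5 and 70.7 in WT and 63.3 and 83.8 in SgshKO at 4 months, against 18.2 and 14.3 in WT and 31.7 and 34.7 in SgshKO at 8 months (log2 -1.61, SE 0.22, FDR = 1.05e-06). A peak in intron 10 of 19 of Ankib1 (chr5:3721354-3722154), which encodes a RING-between-RING ubiquitin ligase, held 78.7 and 99.3 in WT and 82.0 and 83.8 in SgshKO at 4 months and 43.4 and 41.6 in WT and 28.1 and 44.5 in SgshKO at 8 months. Its log2 change was -1.12 (FDR = 3.31e-05), and all 8-month libraries lay below all 4-month libraries. The other lower peaks were weak, nearest to Tppp3, Mir7687, Ubxn6 and Plcg1, a phospholipase C gene: their 4-month levels ran from 4.76 to 53.4 and their 8-month levels from 0 to 16.8. In edgeR's quasi-likelihood test the Mir7687 and Plcg1 calls were lost (FDR = 0.0798 and 0.123).

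The largest called change was set aside by the rule on input and was picked out after its values were seen. A peak nearest to Gm17660 (chr5:104072043-104072843) held 3.74 to 14 scaled tags at 4 months and 57.7 to 110 at 8 months, a log2 change of 3.34 (FDR = 2.68e-11). The 4-month input held 78.5 there, so it stood above the ChIP libraries of its own age. The 8-month input held 0 there, as it did at 64.95% of autosomal peaks. Inputs above 0.25 of the ChIP level occurred at 58 of the 1950 higher and 22 of the 313 lower peaks. Without such peaks 2183 calls remained, 1892 higher and 291 lower.

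Several genes carried a run of called peaks. Rnf220, which encodes a ubiquitin ligase, had 13 higher peaks of 123 tested, in 9 separate regions over 167 kb, with log2 changes from 0.37 to 0.83. Nfix, a nuclear factor I transcription factor gene, had 10 of 85, in 8 separate regions over 50.8 kb. Lzts2, which encodes a leucine zipper protein that binds beta-catenin, had 9 of 29 within 16.5 kb. Many of these windows overlapped, and the 9 formed only 2 separate regions. Thra, the gene for thyroid hormone receptor alpha, had 9 of 34 within 9.87 kb, in 4 separate regions. Among all tested peaks 2.52% were higher, and in the strongest class of signal 8.49% were. These 4 genes were picked for having the most calls, and none had a lower peak, as the rule for naming them required. The Lzts2 promoter (chr19:45017698-45018498), whose sequence is given above, held 97.5 and 95.8 in WT and 121 and 77.1 in SgshKO at 4 months. The later libraries held 218 and 263 in WT and 239 and 217 in SgshKO, a log2 change of 1.26 (SE 0.13, FDR = 5.65e-10). The 5′ UTR peak of Nfix (chr8:84773702-84774502) held 97.0 to 121 at 4 months and 218 to 265 at 8 months (log2 1.08, FDR = 4.72e-09). In Thra the strongest call lay in intron 1 of 8, with 272 to 330 at 4 months and 411 to 482 at 8 months (log2 0.64, FDR = 1.55e-06).

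In the other direction 9130227L01Rik and Elmo1, whose protein works with DOCK exchange factors in engulfment and migration, had 8 lower peaks each. These were of 35 and 74 tested, in 5 and 7 separate regions. Plin4, the gene for a lipid droplet coat protein, had 5 of 18 within 7.47 kb, in 4 regions, and 1700020N01Rik had 4 of 21, in 3. Among all tested peaks 0.404% were lower, and in the strongest class of signal 0.775% were. These genes too were picked for their counts. The top Plin4 window, in exon 3 of 9, held 325 and 351 in WT and 260 and 248 in SgshKO at 4 months, against 204 and 255 in WT and 204 and 147 in SgshKO at 8 months (log2 -0.55, FDR = 0.00045). Here the ages overlapped, since 1 WT library of 8 months lay above the lower SgshKO library of 4 months. At 1700020N01Rik (chr10:21629152-21629952) they did not: levels were 209 to 305 at 4 months and 120 to 148 at 8 months (log2 -0.81, FDR = 3.41e-06). Under library total the calls at the Plin4, Elmo1 and 1700020N01Rik windows were lost, with log2 changes of -0.13, -0.25 and -0.39.

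Myelin genes gained H3K27ac at a share of their peaks. The list, called myelin genes here, holds 34 genes of myelin proteins and of mature oligodendrocytes, and 32 of them had tested peaks. Of 850 peaks 50 were higher (5.88%, against 2.52% of all tested peaks) and 3 lower. The median change was 0.04, against 0.01 over all tested peaks. Myelin peaks were also strong: 44.0% lay in the strongest class of signal, against 20.0% of all tested peaks. Within that class 47 of 374 were higher (12.6%), against 8.49% of all peaks there. For gene lists a promoter is counted once, by the peak nearest the start and within 1 kb of it. Of 32 myelin promoter peaks 6 rose (18.8%, against 2.73% of all promoter peaks), among them Mag, Mog, Trf, Hapln2 and Cryab, and none fell. The 32 were strong, with a median level of 207.5 scaled tags at 4 months against 25.4 for all promoter peaks. The comparison with 2.73% is therefore not matched for signal. The median change of the 32 was 0.13 against 0.06 for all promoter peaks. The 32 promoters together held 6187 to 7173 scaled tags in the 4-month libraries against 7528 to 8008 in the 8-month libraries, with no overlap. The 6 promoter calls became 12 under library total, 3 under quantile scaling, 4 with TMM from promoter peaks, 2 without replicate 2 of WT at 8 months and 4 without replicate 2 of SgshKO at 4 months. The counts over all myelin peaks were 155 higher and 0 lower under library total, 34 higher and 10 lower under quantile scaling, 35 and 9 with TMM from promoter peaks, and 32 and 0 without replicate 2 of WT at 8 months, and they were 39 and 1 without replicate 2 of SgshKO at 4 months. The median over all myelin peaks turned to -0.0063 under quantile scaling and -0.021 with TMM from promoter peaks, so it has no fixed sign.

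Mag, which encodes a glycoprotein of the innermost myelin layer facing the axon, had the top call of the list. Its promoter (chr7:30914549-30915349) held 377 and 418 in WT and 484 and 338 in SgshKO at 4 months, against 684 and 676 in WT and 642 and 643 in SgshKO at 8 months. The 4 libraries of 8 months were all higher, with a log2 change of 0.72 (SE 0.08, FDR = 2.18e-08). The promoter of Mog (chr17:37023039-37023839), a surface protein of the outermost myelin layer, moved less: 487 and 441 in WT and 509 and 467 in SgshKO, then 557 and 649 in WT and 576 and 586 in SgshKO (log2 0.31, SE 0.08, FDR = 0.00915). Under quantile scaling the Mog call was lost (log2 0.19, FDR = 0.122). Trf, the gene for the iron carrier transferrin, rose at its promoter from 160 to 220 at 4 months to 267 to 312 at 8 months (log2 0.65, FDR = 3.91e-05).

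Other myelin genes changed outside their promoters. Opalin, which encodes an oligodendrocyte membrane glycoprotein, had 7 higher peaks of 37 (log2 0.40 to 1.13), the most in the list, and was picked out for that count. Sept4, a septin gene that the deposited table lists as 4-Sep, had 6 of 23, and a window in its first intron held 417 to 558 at 4 months and 730 to 809 at 8 months (log2 0.66, FDR = 2.39e-08). An intronic peak of Fa2h, the hydroxylase that shapes myelin galactolipids, held 406 to 546 and then 624 to 762 (log2 0.55, FDR = 1.48e-06). Mbp had 4 higher peaks of 119 tested (log2 0.28 to 0.53), and the window at the start site nearest in the table is an upstream start with few tags. Among all tested peaks 2.52% were higher, and in the strongest class of signal 8.49% were. The promoters of Mobp, Cnp and Cldn11 had log2 changes of 0.18, 0.18 and 0.17, and none passed the threshold, though Mobp and Cnp did under library total (FDR = 0.0452 and 0.0443). The 3 lower peaks of the list belonged to Cnp (-0.70), Cldn11 (-0.54) and Gsn (-0.50).

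**Figure D4:**
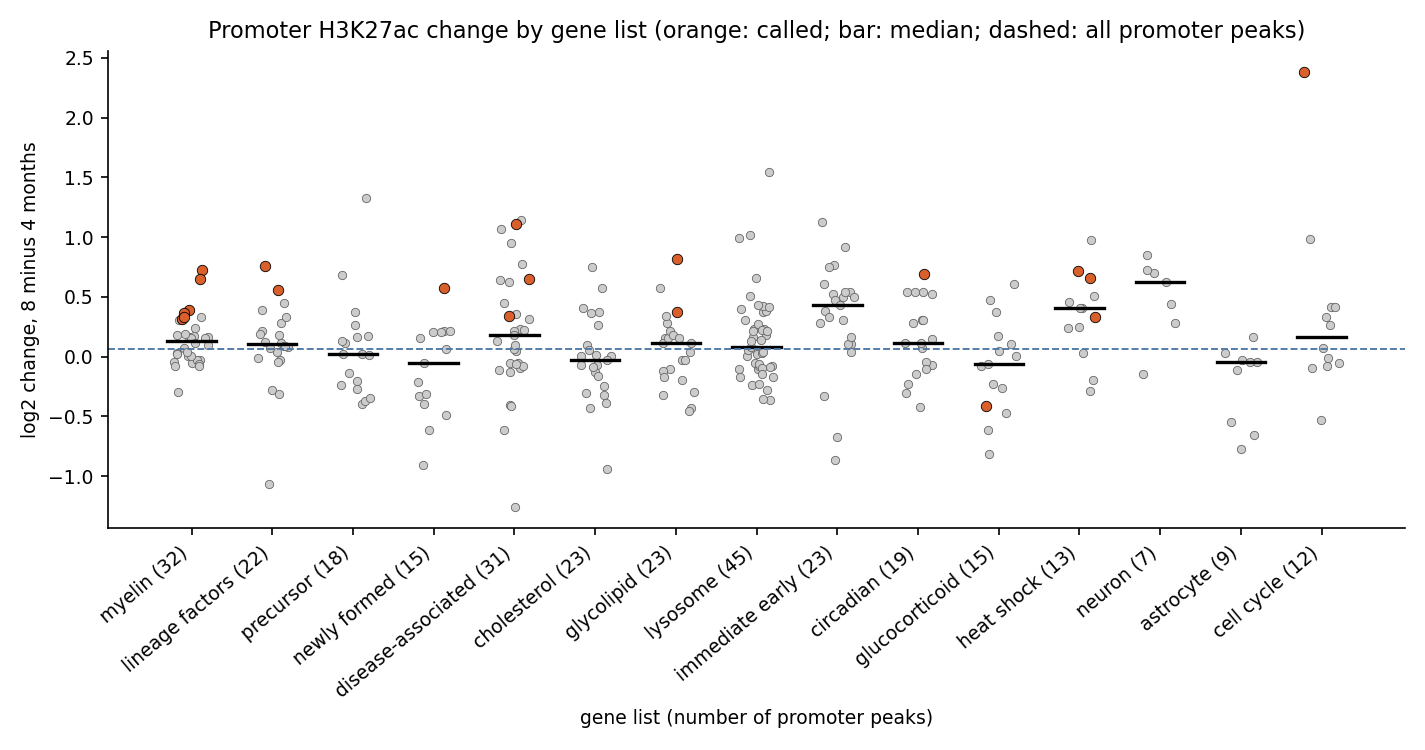
Log2 change from 4 to 8 months of the promoter peaks of each gene list, with orange points for called peaks, a bar for the list's median and a dashed line for the median of all promoter peaks. Called promoters appear in the myelin, transcription factor, newly formed, disease-associated, glycolipid, circadian, glucocorticoid, heat shock and cell cycle lists, all higher except in the glucocorticoid list. The precursor, cholesterol, lysosome, immediate early, neuron and astrocyte lists have none.

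Among 23 transcription factor genes of the oligodendrocyte lineage, 17 of 405 peaks were higher and none lower. The share was 4.20% (2.52% over all tested peaks), and 16 of the 17 lay in the strongest class of signal. Promoters rose at Sox10 and Nkx2-2, both needed for oligodendrocyte differentiation. The peak nearest the start passed the threshold at no other of the 22 genes measured, so 9.09% rose, against 2.73% of all promoter peaks. A second peak at the promoter of St18, a zinc finger gene, 500 bases from the start, also rose (log2 0.50, FDR = 6.93e-06). Under quantile scaling the list had 12 higher and 6 lower peaks, and without replicate 2 of WT at 8 months or of SgshKO at 4 months it had 9 higher and none lower. Sox10 held 148 and 149 in WT and 198 and 164 in SgshKO at 4 months, against 229 and 244 in WT and 261 and 233 in SgshKO at 8 months (log2 0.56, SE 0.11, FDR = 0.000599). The Nkx2-2 promoter held 80.1 to 127 at 4 months and 139 to 175 at 8 months (log2 0.76, FDR = 0.000179). Zeb2, a gene needed for myelination, had 5 higher peaks of 46, and Olig1 had 4 of 49. The Olig2 promoter had a log2 change of 0.39 (FDR = 0.0805), below the threshold here and past it in DESeq2 (FDR = 0.0482), and Olig1 and Myrf promoters had 0.08 and 0.04.

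No peak of the precursor genes was called. Over 22 precursor genes 0 of 199 peaks passed limma's threshold in either direction, against 2.92% of all tested peaks. These peaks were weak, with 7.04% in the strongest class of signal, which held 67.4% of all higher peaks. Few calls could be made here, and the median change was 0.02. At the promoter of Pdgfra, the growth factor receptor that marks precursors, levels were 5.85 and 1.90 in WT and 3.74 and 14 in SgshKO at 4 months, against 14.7 and 8.37 in WT and 19.4 and 17.6 in SgshKO at 8 months. The log2 change of 1.33 had a wide error (SE 0.44, FDR = 0.0976), and the ages overlapped. Cspg4 had a log2 change of 0.11 (SE 0.34). Of the genes of newly formed oligodendrocytes, 9 of 212 peaks were higher (4.25%, against 2.52% of all tested peaks) and none lower. Of 15 promoters 1 rose (2.73% of all promoter peaks did), that of Gpr17, a receptor gene of cells about to mature. Gpr17 held 136 and 97.7 in WT and 148 and 142 in SgshKO, then 180 and 164 in WT and 234 and 201 in SgshKO (log2 0.57, FDR = 0.00172).

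Genes reported in disease-associated oligodendrocytes had 16 of 295 peaks higher (5.42%, against 2.52% of all tested peaks) and 1 lower. The list shares Trf with the myelin genes, and Trf had 5 of the 16. In the strongest class of signal 14 of 82 were higher (17.1%, against 8.49% of all peaks there). The largest change among called promoters was at C4b (chr17:34743541-34744341), which encodes complement component C4. It held 30.0 and 21.3 in WT and 44.5 and 46.3 in SgshKO at 4 months, against 38.2 and 45.7 in WT and 130 and 134 in SgshKO at 8 months (log2 1.11, SE 0.20, FDR = 0.000162). The SgshKO libraries of 8 months stood far above the rest, and the WT libraries of 8 months overlapped the SgshKO libraries of 4 months. The change was 0.70 in WT (FDR = 0.221) and 1.52 in SgshKO (FDR = 0.000704), and the test of the difference between genotypes had FDR = 0.914. A peak 1.30 kb from Neat1, a long noncoding RNA that builds paraspeckles, held 246 to 326 at 4 months and 451 to 535 at 8 months (log2 0.74, FDR = 7.76e-08). Serpina3n and Il33 promoters had log2 changes of 0.78 (FDR = 0.178) and -0.05 (FDR = 0.906).

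Lipid and lysosome genes changed at few peaks. Of genes for sphingolipid and fatty acid synthesis 9 of 240 peaks were higher (3.75%, against 2.52% of all tested peaks). The strongest class of signal held 37.1% of the 240, and there 7 of 89 were higher (7.87%, against 8.49% of all peaks there). Of 23 promoters 2 rose (8.7%, against 2.73% of all promoter peaks), those of the desaturase gene Scd2 (log2 0.37) and of Sgms1. The Sgms1 promoter held 74.5 and 54.4 in WT and 65.6 and 58.8 in SgshKO at 4 months, against 122 and 111 in WT and 95.4 and 121 in SgshKO at 8 months (log2 0.82, SE 0.15, FDR = 0.000362). Of cholesterol synthesis and uptake genes 3 of 116 peaks were higher (2.59%), 1 of them 589 bases from the start of Insig1 (log2 0.47, FDR = 0.0194), and 0 of the 23 peaks nearest a start passed limma's threshold. Of lysosome and autophagy genes 2 of 162 peaks were higher (1.23%), 1 of them 903 bases from the start of Scarb2 (FDR = 0.0125) and 1 at Sqstm1, and 0 of the 45 peaks nearest a start passed limma's threshold. Among the 4 genes of the MITF and TFE family, the Tfeb promoter held 99.8 and 138 in WT and 129 and 107 in SgshKO, then 160 and 191 in WT and 177 and 149 in SgshKO (log2 0.52, SE 0.13, FDR = 0.0111). The promoter of Sgsh itself had a log2 change of -0.08 with 74.9 to 96.2 scaled tags over the 8 libraries, and H3K27ac there does not check the genotype.

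Glucocorticoid-responsive genes were the list with the most lower peaks. Of 324 peaks 14 were lower (4.32%, against 0.404% of all tested peaks) and 4 higher, and the median change was -0.11. The lower peaks belonged to Plin4 (5), Klf9 (3), Zbtb16 (3), Per1, Hif3a and Errfi1, so 1 gene held over 1 in 3 of them, and the promoter of Plin4 fell by 0.41 on the log2 scale (FDR = 0.0404). The 4 higher peaks belonged to Klf15, Ddit4, Klf9 and Zbtb16. At a distal Klf15 peak, 28.6 kb from the start, levels were 24.6 and 9.13 in WT and 16.0 and 4.41 in SgshKO at 4 months, against 42.2 and 54.5 in WT and 46.3 and 39.1 in SgshKO at 8 months (log2 1.90, FDR = 4.18e-05). Under scaling by library total the median of the list was 0.28, below the 0.41 of all tested peaks, and the list had 25 higher and 0 lower peaks by the same limma test. Lower peaks numbered 7 without replicate 2 of SgshKO at 4 months and 4 without replicate 2 of WT at 8 months.

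Heat shock and immediate early genes had promoter medians above that of all promoters. The heat shock list had 5 of 67 peaks higher (7.46%, against 2.52% of all tested peaks). Of 13 promoters 3 rose (23.1%, against 2.73% of all promoter peaks). They were those of Hspa8 and Hsp90ab1, which encode cytosolic chaperones, and of Cryab, a small heat shock protein. The list shares Cryab with the myelin genes, and Cryab had 2 of the 5 higher peaks. The Hspa8 promoter held 39.4 and 60.5 in WT and 72.4 and 60.2 in SgshKO at 4 months, against 73.6 and 106 in WT and 107 and 92.8 in SgshKO at 8 months (log2 0.71, FDR = 0.00687). Without replicate 2 of WT at 8 months the list had 1 higher peak and no promoter passed limma's threshold. Over 13 heat shock promoters the median was 0.40, and over 23 immediate early promoters it was 0.43, against 0.06 for all promoters and 0.62 for the 7 weak promoters of neuron genes. The heat shock median was 0.55 in WT and 0.17 in SgshKO, and the immediate early median was 0.29 in WT and 0.41 in SgshKO. Within groups the libraries' medians had a pooled SD of 0.33 for heat shock and 0.19 for immediate early promoters. None of the 23 immediate early promoters passed limma's threshold as the peak nearest the start. Fos, a subunit of AP-1, had the values 22.6 and 10.6 in WT and 17.0 and 17.6 in SgshKO, then 22.7 and 21.8 in WT and 45.0 and 46.7 in SgshKO (log2 0.92, FDR = 0.0612). Within gene bodies Nr4a1, an orphan nuclear receptor gene, had 3 higher peaks of 15. Jun had called peaks in both directions among 11 tested. A 5′ UTR window of Jun was lower (202 to 260, then 144 to 187, log2 -0.48, FDR = 0.00527), a call lost under library total, and another Jun peak was higher (log2 1.69). Of circadian genes 4 of 172 peaks were higher (2.33%) and 1 lower, and the promoter of the repressor gene Bhlhe40 rose by 0.70 (FDR = 0.000112).

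Markers of other cell types had few promoter peaks, and the signal at these differed by list. At 4 months the median promoter level was 2.91 scaled tags for neuron, 14.25 for astrocyte, 36.8 for microglia and 3.115 for endothelial genes. It was 25.4 for all promoter peaks. Of 24 neuron genes 17 had no promoter peak, and the summed level of the other 7 was 13.6 to 42.6 scaled tags in the 4-month libraries, against 35.4 to 50.4 in those of 8 months. The astrocyte sum ran from 205 to 255 and then 189 to 226 (9 promoters), the microglia sum from 62.5 to 89.4 and then 65.6 to 76.0 (2 promoters), and the endothelial sum from 49.1 to 78.9 and then 44.6 to 57.4 (3 promoters). The 7 neuron promoters had a median log2 change of 0.62, above the 0.40 of heat shock and 0.43 of immediate early promoters, and of 0.57 to 1.01 under the other scalings. None of them passed limma's threshold, and their median level was 2.91 scaled tags at 4 months and 4.82 at 8 months. No promoter peak of these lists was at 0 in every library, and mural genes had none. The ages overlapped in each of these sums. Their part in the changes described above was not tested. Of 42 neuron, 71 astrocyte, 56 microglia and 48 endothelial peaks, 1, 2, 1 and 0 were higher. These are 2.38%, 2.82%, 1.79% and 0%, against 2.52% of all tested peaks. A weak astrocyte peak at Cldn10 was lower (log2 -2.15), 1.41% of that list against 0.404% of all tested peaks. That call was lost in edgeR's quasi-likelihood test (FDR = 0.0671), and the neuron, microglia and endothelial lists had no lower peak.

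The ages differed in the same direction in both genotypes at most called peaks. In WT 803 peaks were called (1.04% of those tested), 712 higher (0.92%) and 91 lower (0.118%), and in SgshKO 601 (0.776%), 566 higher (0.731%) and 35 lower (0.0452%). Of the WT calls 93.0% had the same sign in the SgshKO libraries, and of the SgshKO calls 95.7% had the same sign in WT, against 57.8% of all tested peaks. The genotypes use separate libraries at each age, and they share the scaling and the estimate of spread. Calls in both numbered 265, which is 33.0% of the WT and 44.1% of the SgshKO calls. Peaks higher in WT had a median log2 change of 0.81 there and 0.53 in SgshKO, and peaks higher in SgshKO had 0.79 there and 0.56 in WT, so each set moved less in the genotype that did not select it.

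The counts per genotype rested on few libraries. Leaving out 1 library at a time gave 74 to 2852 calls in WT and 79 to 1251 in SgshKO. A fit on the 4 WT libraries alone gave 209 and a fit on the 4 SgshKO libraries alone gave 1229. The counts therefore do not show that either genotype changed more.

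**Figure D5:**
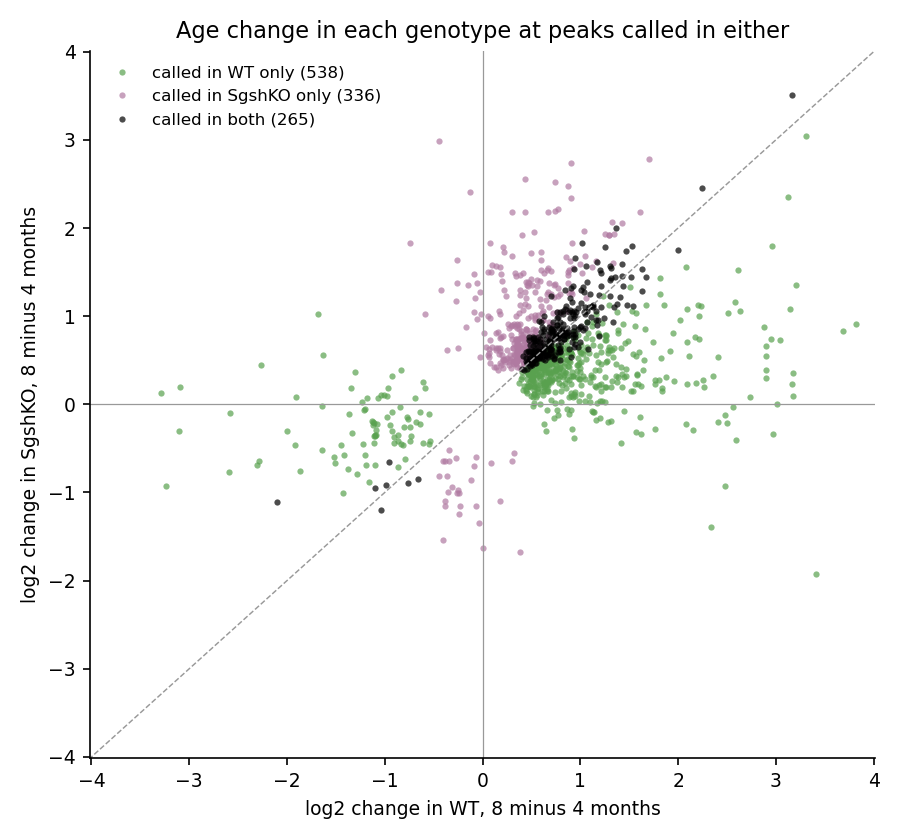
Log2 change from 4 to 8 months in WT (x) against SgshKO (y) for peaks called in either genotype, coloured by where they were called: 538 in WT alone, 336 in SgshKO alone and 265 in both. Most points lie in the upper right, and few lie in the quadrants of opposite sign.

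The age change itself differed between genotypes at 3 peaks (0.00388% of those tested, with 4156 at an unadjusted p under 0.05), at 1 of them towards SgshKO (0.00129%) and at 2 towards WT (0.00258%). At an intergenic peak 5.07 kb from Bmf (chr2:118554360-118555160), a gene of the BH3-only cell death family, levels were 85.4 and 45.6 in WT and 19.7 and 22 in SgshKO at 4 months, against 45.7 and 29.9 in WT and 78.4 and 75.5 in SgshKO at 8 months. The interaction was 2.57 on the log2 scale, as SgshKO minus WT (FDR = 0.00112). A peak 159 kb from Dpy19l1 (chr9:24343644-24344444) held 311 and 356 in WT and 468 and 439 in SgshKO, then 396 and 422 in WT and 297 and 280 in SgshKO, an interaction of -0.95 (FDR = 0.00586). A weak peak in intron 5 of 7 of Gpatch2 had an interaction of -3.73 (FDR = 0.0383). These peaks moved in opposite directions in the genotypes, and their number ranged from 0 to 260 when 1 library was left out.

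The series also holds ChIP of MITF, TFEB and TFE3, basic helix-loop-helix factors that control lysosomal genes, in pooled oligodendrocyte nuclei counted at the same peaks. A peak was taken as occupied when the factor's signal was at least 2-fold the matched input on average over the WT and SgshKO pools. All 3 factors occupied 40% of tested peaks, 67.2% of the higher peaks and 30.0% of the lower. Within the strongest class of signal the shares were 50.3%, 64.3% and 33.3%. The pools have no replicates and no age contrast, so these shares describe where the changed peaks lie and carry no test.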

How the data were processed

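Per the submitters' processing notes, reads were processed with Bowtie2, HOMER and DESeq2 on the mm10 build; roles and settings are not given in the sources used here. The deposited table gives signal as HOMER tag counts per peak, normalised to 10000000 tags per library, per the file headers, at peaks named for ATAC-seq reproducibility (IDR). From these values and the library totals in the headers the tags were recovered: 100% of low values were whole within 0.02 of a step.

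Recovered tags passed edgeR (4.0.16) filterByExpr, were scaled by TMM, and log2(scaled tags + 1) was fitted with limma-trend (3.58.1, R 4.3.3). All peaks of the table entered the fit and the Benjamini-Hochberg adjustment, at FDR below 0.05. Age over both genotypes had genotype as covariate; age within genotype and the interaction used 4 group means. The share of tags in peaks was compared by an exact permutation test. The fit was tested on simulated data. A fold change on this scale understates the change of weak peaks.

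Named peaks were the 8 per direction with the smallest p, at most 1 per nearest gene, among calls whose ages did not overlap, that held under library total and quantile scaling, with input at most 0.25 of ChIP; then 4 genes per direction with the most called peaks; then fixed genes by the peak nearest their start within 1 kb; then the top examples of each list. Members and lists were chosen with earlier results of these data known. Alternatives tried were other scalings, pseudocounts, filters, edgeR's quasi-likelihood test, DESeq2 (1.42.0), autosomal peaks only, each genotype's libraries alone, a replicate block and leaving out each library; filters on 20 mean tags and on input were added after seeing the data. Peaks on other chromosomes, and a few items that the rules would name, are not reported here.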

Additional observations from a re-analysis of the deposited data

Results flagged for a closer look

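At each described peak the 4 libraries of an age, both genotypes together, were checked for 1 library far from the other 3. A gap large enough to pass Dixon's 95% criterion occurred in 9 of 182 such groups over 90 peaks, and chance alone flags about 1 in 20. High libraries were replicate 2 of WT at 8 months at the peaks of Slc22a16 (1022 scaled tags) and Hsp90ab1 (242, the others 142 to 147), replicate 1 of SgshKO at 4 months at Thra (330), replicate 1 of SgshKO at 8 months at Mobp (488) and Rbfox3 (69.3), replicate 2 of WT at 4 months at Slc1a3 (138), and replicate 2 of SgshKO at 4 months at Mcm6 (13.2). Low libraries were replicate 2 of WT at 4 months at 3110039I08Rik (165) and replicate 1 of SgshKO at 8 months at Il33 (113).

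The age change differed between WT and SgshKO by the test of the interaction term at 3 peaks. The log2 interactions were 2.57 at Bmf, -0.95 at Dpy19l1 and -3.73 at Gpatch2, whose levels were 4.68 and 2.28 in WT and 23.1 and 26.5 in SgshKO at 4 months, then 26.3 and 16.5 in WT and 6.59 and 11.7 in SgshKO at 8 months.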

How the results depend on the processing

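Counts of calls within 1.5 times of the reported ones under an alternative are not listed. Library total gave 9349 calls for age over both genotypes, 527 in WT and 1022 in SgshKO. TMM from promoter peaks gave 525 in WT. Fits on 1 genotype's libraries gave 209 in WT and 1229 in SgshKO. The interaction, 3 calls as reported, had 7 under quantile scaling, 5 with TMM from promoter peaks, 6 with a pseudocount of 5, 8 in DESeq2 and 1 with autosomal peaks alone in the fit. Leaving out 1 library at a time gave 1151 to 2843 calls for age, 74 to 2852 in WT, 79 to 1251 in SgshKO and 0 to 260 for the interaction (0 without replicate 2 of WT at 8 months or replicate 1 of SgshKO at 4 months, with 3861 and 3536 peaks at an unadjusted limma p under 0.05), and a difference of 10.99 to 17.02 points in the share of tags in peaks. Such fits assume that the lone library left in a group varies like the other groups. The cause of these shifts was not tested. With a replicate block, calls numbered 2204, 767, 564 and 3. Same-numbered libraries did not deviate together (r from -0.02 to 0.00 over 61912 peaks), so the numbers do not pair the libraries. Sign changes occurred at promoters below the threshold: under library total Il33 had 0.37, Per1 0.19 and Sgsh 0.34; Myrf had -0.0334 under quantile scaling and -0.0229 with TMM from promoter peaks; the weak Mbp start had -0.0117 with TMM from promoter peaks, -0.0215 with a pseudocount of 5, -0.15 in edgeR and -0.16 in DESeq2. Leaving out 1 library, Mbp ran from -0.45 to 0.51, Cspg4 from -0.0823 to 0.361 and Il33 from -0.110 to 0.0473. Over the alternatives that keep all libraries, described single peaks kept sign and call in 839 pairs of peak and setting, lost the call in 45 and gained one in 7. The depth of the libraries limits the weakest class of peaks, at a median of 3.94 scaled tags, where 0.116% were called higher.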
